A study of Mus musculus with 6 samples.

Results

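The collagen genes were taken as every gene whose probe sets carry 1 symbol of the form Col, a type number, the letter a and a chain number. They numbered 42 of the 18193 genes that the platform annotation names, and each was followed through its brightest probe set over the 6 arrays. By the class of the protein, 11 were fibrillar collagens, 6 were basement membrane (type IV) collagens, 3 were network collagens, 9 were FACIT collagens (fibril-associated collagens with interrupted triple helices) and 13 belonged to the remaining types. The samples were 3 pools of carotid body, a small chemoreceptor beside the carotid artery that senses blood oxygen, and 3 pools of adrenal medulla, the inner adrenal gland with its adrenaline-releasing chromaffin cells. All came from adult C57/BL6 mice that were not treated, and each pool drew on 10 mice, giving 18 organs per carotid body pool and 10 per adrenal medulla pool. The series gives a carotid body pool and an adrenal medulla pool of 1 cohort of animals the same number, and arrays are named below by tissue and that cohort number. The X-linked transcript Xist separated the tissues within every cohort, at 10.96, 8.84 and 9.82 in carotid body cohorts 1, 2 and 3, against 4.45, 5.60 and 5.02 in adrenal medulla. That gap sits beside the statement on shared animals, and whether the paired pools held the same mice in the same numbers was not tested. Every carotid body pool lay above every adrenal medulla pool in Xist. What separates the pools in Xist therefore cannot be told apart from tissue for any gene below.

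Collagens are secreted proteins whose 3 chains wind into a triple helix. Fibrillar collagens pack into the cables of connective tissue, type IV forms the sheet under epithelium and around vessels, glia and fat cells, network collagens form lattices, and FACITs lie on the surface of fibrils. In paraganglia such as the carotid body, stroma and a basement membrane surround the clusters of sensory cells.

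Expression is given as log2 intensity, so a difference of 1 is 2-fold, and all differences are carotid body minus adrenal medulla. Array medians were 5.25 to 5.32 in carotid body, against 5.16 to 5.18 in adrenal medulla. As a sign of RNA quality, the Gapdh control at its 3′ end exceeded that at its 5′ end by 1.45, 1.04 and 0.59 in carotid body cohorts 1, 2 and 3, against 0.51, 0.13 and 0.61 in adrenal medulla (log2). Of 9 chromaffin and glomus cell markers, 2 were higher in carotid body (5.91% of all genes) and 6 lower (6.08%), by the rule given below. The olfactory receptor gene Olfr78 differed by 6.15 and the adrenaline-making enzyme gene Pnmt by -4.62. Steroid-producing cortex markers were present in every adrenal medulla array, with a mean level over 8 genes of 11.6 to 12.2, and in carotid body cohort 1, at 9.89, against 4.78 and 4.54 in carotid body cohorts 2 and 3. Pnmt was likewise highest in cohort 1 among the carotid body arrays, at 11.13, 7.65 and 8.08, against 13.17, 13.84 and 13.70 in adrenal medulla. The labelled tissues therefore showed their own markers, and the carotid body pool of cohort 1 also had high levels of cortex markers and of Pnmt.

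Carotid body had more RNA of many collagen genes. At an adjusted p under 0.05 (limma) and at least 2-fold, 14 of the 42 were higher in carotid body, where 5.91% of all genes were, and 1 was lower, where 6.08% of all genes were. The 14 were Col1a1, Col1a2, Col3a1, Col5a1 and Col5a2 among the fibrillar genes, Col4a5 of the basement membrane, the network gene Col8a1, the FACIT genes Col12a1, Col14a1 and Col16a1, and Col6a2, Col6a3, Col18a1 and Col23a1. Through their brightest probe sets, their differences ran from 2.41-fold for Col16a1 to 16.9-fold for Col8a1. The single gene lower in carotid body was Col7a1. The median difference was 0.28 over the 42 collagens and -0.04 over all genes. All 3 carotid body arrays lay above all 3 adrenal medulla arrays for 21 of the 42 collagens and for 17.8% of all genes, and the reverse held for 2 of the 42 and for 26.1% of all genes. At an adjusted p under 0.05 with no minimum fold, 17 were higher in carotid body (10.9% of all genes) and 2 lower (16.5% of all genes), the additions being Col2a1, Col4a4 and Col15a1 on the higher side and Col4a3 on the lower. In pooled organs, more cells that make a collagen and more of its RNA per cell cannot be told apart.

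**Figure D1:**
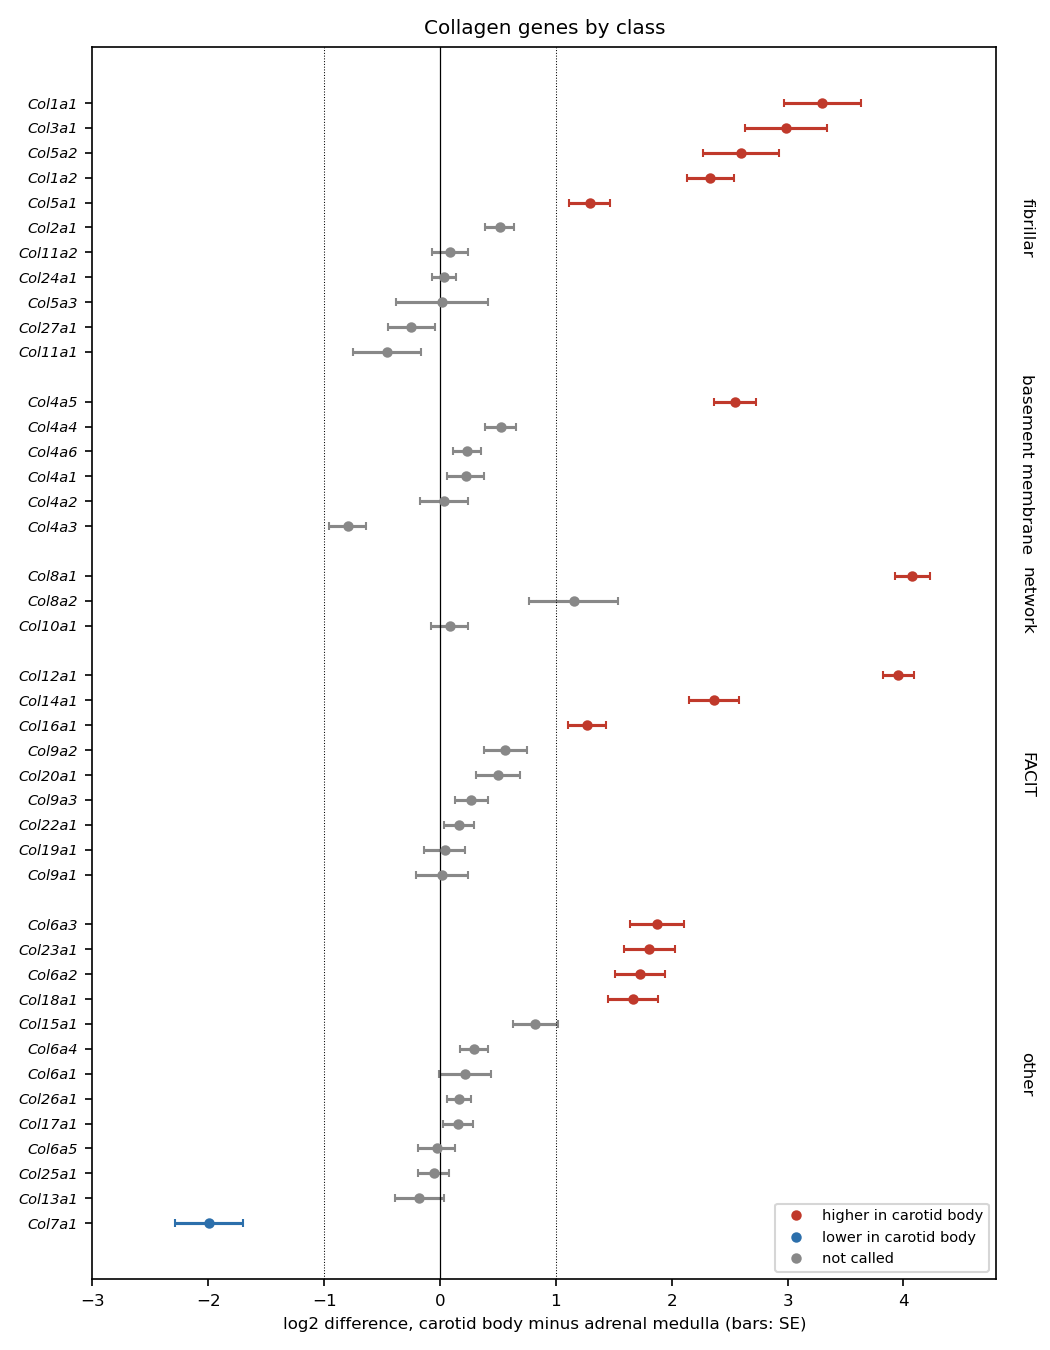
Differences of the 42 collagen genes in log2, carotid body minus adrenal medulla, with the SE of the limma fit (n = 3 arrays per tissue) and grouped by class; dotted lines mark 2-fold. The 14 genes higher in carotid body include members of every class, and Col7a1, at -1.99, stands alone on the other side.

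Of the 11 fibrillar genes, 5 were higher in carotid body (5.91% of all genes), 0 were lower (6.08%) and 6 were not called. Their median difference was 0.51. Those higher encode the chains of types I, III and V, which build mixed fibrils in soft connective tissue. Col1a1, the major chain of type I, was at 10.04, 11.09 and 10.50 in carotid body cohorts 1, 2 and 3, against 6.65, 7.39 and 7.68 in adrenal medulla. The lowest carotid body array was thus over 2 log2 units above the highest adrenal medulla array. The difference was 3.30 ± 0.33 (SE; adjusted p = 0.000519), or 9.85-fold.

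Col1a2, the other chain of type I, was at 13.30, 13.78 and 13.52 in carotid body, against 10.85, 11.55 and 11.20 in adrenal medulla. It differed by 2.33 ± 0.20 (SE; adjusted p = 0.000300), 5.04-fold. Col3a1, whose type III fibrils are abundant in vessel walls and hollow organs, was at 12.68, 13.39 and 13.32 in carotid body, against 9.34, 10.69 and 10.40 in adrenal medulla. In each of these 3 genes the groups lay well apart, and cohort 1 was the lowest array of either tissue. Col3a1 differed by 2.99 ± 0.35 (SE; adjusted p = 0.00112), 7.93-fold.

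Type V collagen sits inside type I fibrils and limits their width. Its chain gene Col5a2 was at 9.64, 10.54 and 10.46 in carotid body, against 6.98, 8.02 and 7.84 in adrenal medulla, a difference of 2.60 ± 0.33 (SE; adjusted p = 0.00149). Col5a1 was at 9.17, 9.52 and 9.23 in carotid body, against 7.74, 8.01 and 8.31 in adrenal medulla. The groups of Col5a1 were also separate, but by less: the difference was 1.29 ± 0.18 (SE; adjusted p = 0.00203), with 0.04 and 0.91 in its other probe sets, and it was not called without cohort 2 (adjusted p = 0.0533) or as the mean of its probe sets (0.75). The remaining type V chain, Col5a3, was at 6.94 ± 0.24 in carotid body, against 6.92 ± 0.88 in adrenal medulla (SD, n = 3), with a 95% interval of the difference from -0.91 to 0.94.

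The fibrillar genes of cartilage and bone gave smaller values. Col2a1, the main collagen of cartilage, was dim, at 4.96, 4.90 and 4.65 in carotid body, against 4.37, 4.29 and 4.30 in adrenal medulla; the groups did not overlap, and the difference of 0.51 (adjusted p = 0.0208) was under 2-fold. Col11a1 and Col11a2, chains of the type XI collagen found with type II, differed by -0.46 (adjusted p = 0.322) and 0.09 (adjusted p = 0.748). Col24a1 and Col27a1, fibrillar collagens of skeletal tissue, differed by 0.03 and -0.25, neither of them called. The other Col27a1 probe set gave -0.91 (adjusted p = 0.0157), and the other Col11a1 probe set -0.79 (adjusted p = 0.0350), both under 2-fold and lower in carotid body. Of 8 cartilage markers measured in the same pools, 2 were higher in carotid body (5.91% of all genes) and 1 was lower (6.08%). The higher ones were Cytl1 at 5.37 and Comp at 2.88, and the lower one was the aggrecan gene Acan at -1.61. The other 5 were not called, and the median difference of the 8 was 0.17. The mean level of the 8 was 5.57 to 5.64 in carotid body, against 4.57 to 4.84 in adrenal medulla. This mean includes the large differences of Cytl1 and Comp and does not stand for a shared rise of the 8. The part of cartilage in the small Col2a1 difference was not tested.

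Most markers of the cells known to make fibrillar collagens moved the same way. All 8 fibroblast markers measured were higher in carotid body (5.91% of all genes). They were led by the microfibril gene Mfap5 at 5.47 and by Pi16 at 3.89. Their mean level was 10.9 to 11.1 in the carotid body arrays, against 7.63 to 7.81 in adrenal medulla. Among 9 markers of smooth muscle and pericytes 8 were higher (5.91% of all genes), with Myh11 at 3.85 and Acta2 at 3.84. The remaining marker, Des, went the other way, at -0.47 (adjusted p = 0.0716, not called), with all adrenal medulla arrays above all carotid body arrays. The mean level of the 9 was 10.1 to 10.3 in carotid body, against 7.80 to 8.03 in adrenal medulla. The part of these cells in the collagen differences was not tested.

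**Figure D2:**
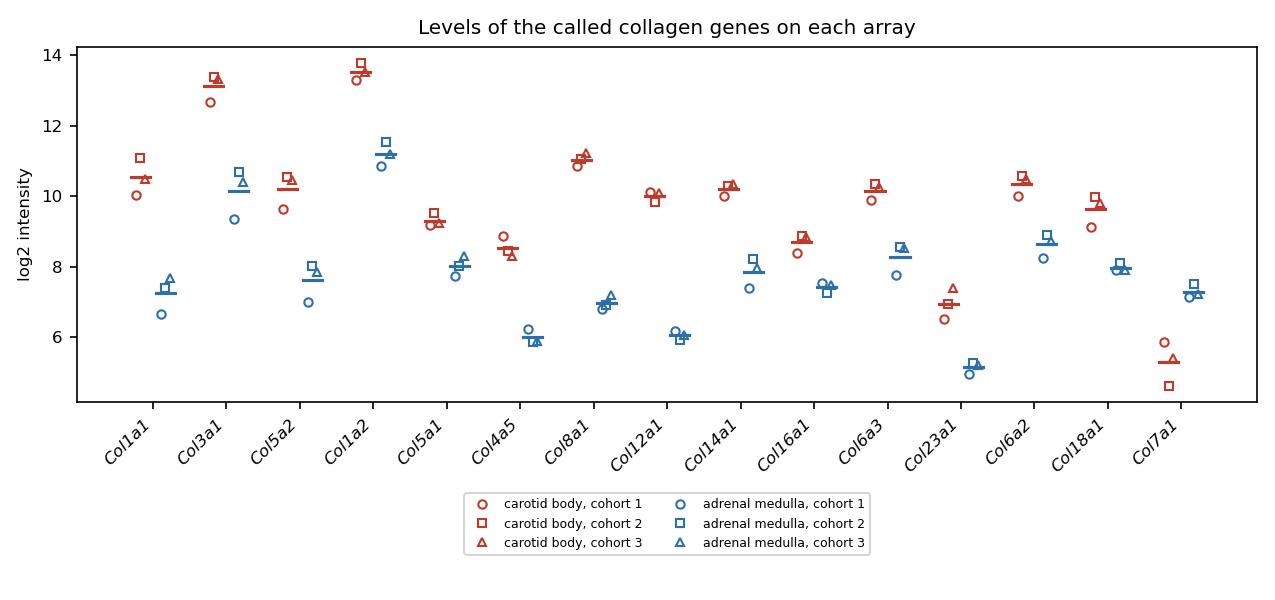
Log2 intensity of the 15 called collagen genes on each array; open symbols are arrays, with a shape for each cohort, and bars are the means of 3 arrays of a tissue. No carotid body array overlaps an adrenal medulla array in any of these genes, and only Col7a1 lies lower in carotid body; levels of different genes come from different probes and are not comparable.

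Among the 14 genes higher in carotid body, cohort 1 was often the lowest array of its tissue. It was the lowest carotid body array in 12 of the 14 and the lowest adrenal medulla array in 10, and in 10 it was the lowest of both tissues. All 5 fibrillar genes of this group behaved so. Over all 42 collagens cohort 1 was lowest in both tissues for 18. The same count was not made over all genes, so the pattern cannot be read as one particular to collagens. With the cohort as a block in the fit, the same 14 genes were higher and the same gene was lower. The excess of the Gapdh 3′ control over the 5′ control was highest in carotid body cohort 1 but not in adrenal medulla cohort 1, and its part in this pattern was not tested.

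Promoters of a pair of the fibrillar genes that were higher together are shown to set their start regions side by side. They span 250 bases before to 50 bases after the start of the gene, from RefSeq on GRCm38.p6: chr6:4505368-4505667 for Col1a2 (+ strand) and chr1:45311288-45311587 for Col3a1 (+ strand). Capitals mark 3 short motifs on either strand: the TATA box TATAAA, the CCAAT box CCAAT, and the GC box GGGCGG, which read ATTGG for CCAAT and CCGCCC for the GC box when on the other strand.
Col1a2: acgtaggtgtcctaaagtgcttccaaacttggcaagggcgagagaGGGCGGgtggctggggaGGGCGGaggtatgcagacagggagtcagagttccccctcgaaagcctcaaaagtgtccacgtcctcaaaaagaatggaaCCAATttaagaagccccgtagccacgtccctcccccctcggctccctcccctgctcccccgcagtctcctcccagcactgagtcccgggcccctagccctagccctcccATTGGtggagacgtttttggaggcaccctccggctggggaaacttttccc
Col3a1: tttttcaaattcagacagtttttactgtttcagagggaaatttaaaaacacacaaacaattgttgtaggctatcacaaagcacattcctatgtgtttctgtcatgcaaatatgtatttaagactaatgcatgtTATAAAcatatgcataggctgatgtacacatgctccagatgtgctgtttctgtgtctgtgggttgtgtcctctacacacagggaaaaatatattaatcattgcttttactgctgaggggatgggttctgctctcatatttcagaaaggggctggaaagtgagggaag
The Col1a2 window held 2 CCAAT boxes and 2 GC boxes and had a GC content of 61.0%. The Col3a1 window, at 37.7% GC, held neither and had 1 TATAAA. So the pair differed in these letters while both RNAs were higher in carotid body. A promoter was found for 33 of the 42 collagen genes. A gene was counted when any of its promoters held the motif, whereas the shares over all promoters count each promoter singly. These shares are of unlike units, and a gene with several promoters is counted more easily. A GC box was in 21 of these 33 genes, or 63.6%, and in 35.6% of all 32817 promoters of the same length. CCAAT was in 13 of the 33 and in 37.4% of all promoters, and TATAAA in 5 of the 33 and in 13.6% of all. A match is a description of the letters and not a site of binding.

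Type IV collagen genes lie in 3 head-to-head pairs, and their chains form 3 kinds of protomer: the widespread one of Col4a1 and Col4a2 chains, one of Col4a3, Col4a4 and Col4a5 chains known from kidney, lung and inner ear, and one of Col4a5 and Col4a6 chains known from smooth muscle and skin. Of the 6 genes, 1 was higher in carotid body by the 2-fold rule (5.91% of all genes) and 0 were lower (6.08%). The median difference was 0.23. Col4a1 was at 10.89, 11.25 and 11.16 in carotid body, against 10.64, 11.11 and 10.88 in adrenal medulla. Col4a2 was at 9.16, 9.81 and 9.61 in carotid body, against 9.22, 9.78 and 9.47 in adrenal medulla. The groups overlapped in both genes. Col4a1 differed by 0.22 (95% interval -0.15 to 0.60; adjusted p = 0.382) and Col4a2 by 0.04 (95% interval -0.45 to 0.52; adjusted p = 0.930), so a 2-fold difference lay outside either interval.

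Col4a5 was at 8.88, 8.44 and 8.29 in carotid body, against 6.22, 5.86 and 5.90 in adrenal medulla. Every carotid body array was over 2 log2 units above every adrenal medulla array. The difference was 2.55 ± 0.18 (SE; adjusted p = 0.000131), 5.84-fold. The other Col4a5 probe set gave 0.57 (adjusted p = 0.00868), in the same direction but under 2-fold, and the mean of both differed by 1.56. Its neighbour Col4a6 was at 5.07, 5.22 and 5.01 in carotid body, against 4.99, 4.78 and 4.84 in adrenal medulla, groups that were separate by a narrow gap; the difference of 0.23 was not called (adjusted p = 0.214). Both genes are on the X chromosome, as is Xist, whose levels are given above. The part of what separates the pools in Xist was not tested, in the Col4a5 difference or in those of the other collagens.

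The chains of the third pair differed in opposite directions, each by less than 2-fold. Col4a3 was at 5.30, 5.44 and 5.56 in carotid body, against 5.95, 6.27 and 6.47 in adrenal medulla, a difference of -0.79 ± 0.16 (SE; adjusted p = 0.0101). Col4a4 was at 6.81, 6.74 and 6.86 in carotid body, against 6.46, 6.33 and 6.04 in adrenal medulla, a difference of 0.52 ± 0.14 (SE; adjusted p = 0.0296). In neither gene did the groups overlap. The other Col4a3 probe set gave -0.51, and the 3 probe sets of Col4a4 ranged from -0.13 to 0.67.

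**Figure D3:**
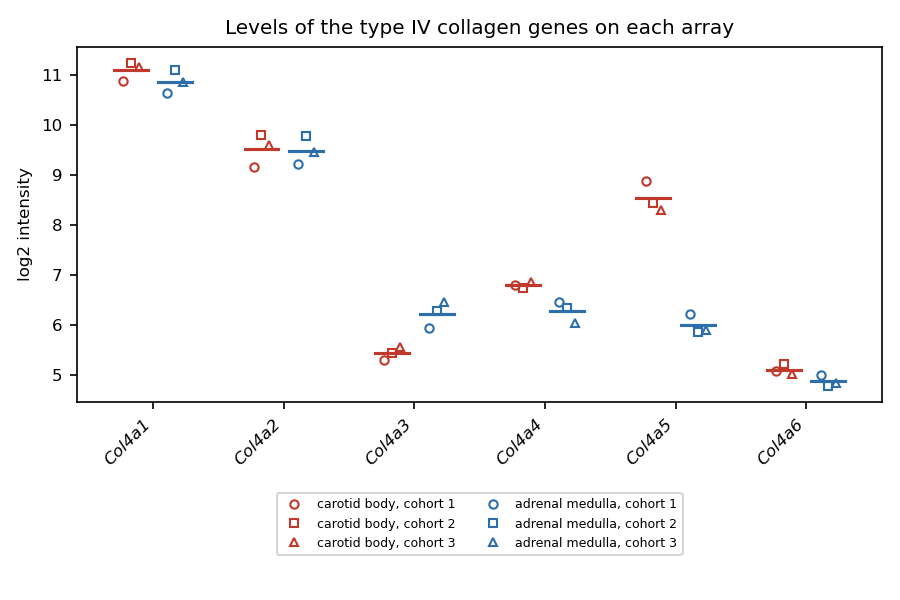
Log2 intensity of the 6 type IV collagen genes on each array, with a shape for each cohort and bars for the means of 3 arrays. Col4a1 and Col4a2 overlap between tissues, Col4a5 stands 2.55 higher in carotid body, and Col4a3 stands 0.79 lower there.

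The start regions of 2 of the head-to-head pairs are shown because the genes of a pair share them or lie close to them: Col4a1 and Col4a2, of which neither was called, and Col4a5 and Col4a6, of which the first alone was called. The windows, in the same RefSeq build, are chr8:11312777-11313076 for Col4a1 (- strand), chr8:11312555-11312854 for Col4a2 (+ strand), chrX:141475169-141475468 for Col4a5 (+ strand) and chrX:141474027-141474326 for Col4a6 (- strand), each read in the direction of its gene, with capitals as above.
Col4a1: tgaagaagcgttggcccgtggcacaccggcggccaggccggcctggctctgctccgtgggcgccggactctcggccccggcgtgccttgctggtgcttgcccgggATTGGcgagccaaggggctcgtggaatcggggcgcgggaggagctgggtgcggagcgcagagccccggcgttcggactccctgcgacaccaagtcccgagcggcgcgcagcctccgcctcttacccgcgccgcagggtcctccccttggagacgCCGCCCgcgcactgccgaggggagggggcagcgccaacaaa
Col4a2: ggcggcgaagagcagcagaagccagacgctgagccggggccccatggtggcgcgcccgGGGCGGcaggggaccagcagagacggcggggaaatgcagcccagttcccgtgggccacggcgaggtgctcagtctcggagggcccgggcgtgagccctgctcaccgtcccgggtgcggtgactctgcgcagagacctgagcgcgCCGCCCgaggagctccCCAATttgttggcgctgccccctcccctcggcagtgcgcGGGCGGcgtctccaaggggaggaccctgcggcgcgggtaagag
Col4a5: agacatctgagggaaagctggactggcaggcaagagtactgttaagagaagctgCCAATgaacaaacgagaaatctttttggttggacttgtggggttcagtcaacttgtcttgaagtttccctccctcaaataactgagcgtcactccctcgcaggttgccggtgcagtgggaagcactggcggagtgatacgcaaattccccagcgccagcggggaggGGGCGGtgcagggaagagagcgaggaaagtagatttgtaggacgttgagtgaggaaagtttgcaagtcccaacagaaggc
Col4a6: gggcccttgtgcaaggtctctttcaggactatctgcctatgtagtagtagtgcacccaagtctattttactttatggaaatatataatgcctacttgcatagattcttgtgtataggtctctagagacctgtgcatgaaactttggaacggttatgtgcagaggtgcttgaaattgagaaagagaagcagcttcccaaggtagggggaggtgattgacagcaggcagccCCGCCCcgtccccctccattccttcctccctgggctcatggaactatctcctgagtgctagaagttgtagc
The windows of Col4a1 and Col4a2 overlapped by 78 bases and were 74.0% and 73.7% GC. Those of Col4a5 and Col4a6 did not overlap, the annotated starts being 1343 bases apart, and were 52.7% and 48.3% GC. Each of the 4 windows held a GC box, 3 of them in Col4a2, and a CCAAT box was found in all but that of Col4a6. The GC box of Col4a1 and the last of the 3 in Col4a2 are the same bases, read from opposite strands where the windows overlap.

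To set partner chains against each other, the log2 difference between their probe sets was taken within each array and compared between tissues for 9 pairs, chosen with the values known. With 3 arrays against 3, the smallest two-sided p of an exact permutation test is 0.1, and every pair gave it (0.1 after adjustment over the 9 pairs). Sizes are therefore given as a description. Col4a5 minus Col4a6 was 3.80, 3.22 and 3.28 in carotid body, against 1.23, 1.08 and 1.06 in adrenal medulla, a shift of 2.31. Col4a1 minus Col4a2 shifted by 0.19. Col1a1 minus Col1a2 shifted by 0.97, and Col5a1 minus Col5a2 by -1.31. Col4a3 minus Col4a4 shifted by -1.32, Col4a5 minus Col4a1 by 2.32 and Col8a1 minus Col8a2 by 2.92. These sizes depend on the probe sets: with the mean of all probe sets of each chain, Col4a5 minus Col4a6 shifted by 1.23, Col8a1 minus Col8a2 by 1.4997, Col5a1 minus Col5a2 by -2.003, Col4a5 minus Col4a1 by 1.55 and Col4a1 minus Col4a2 by -0.03.

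**Figure D4:**
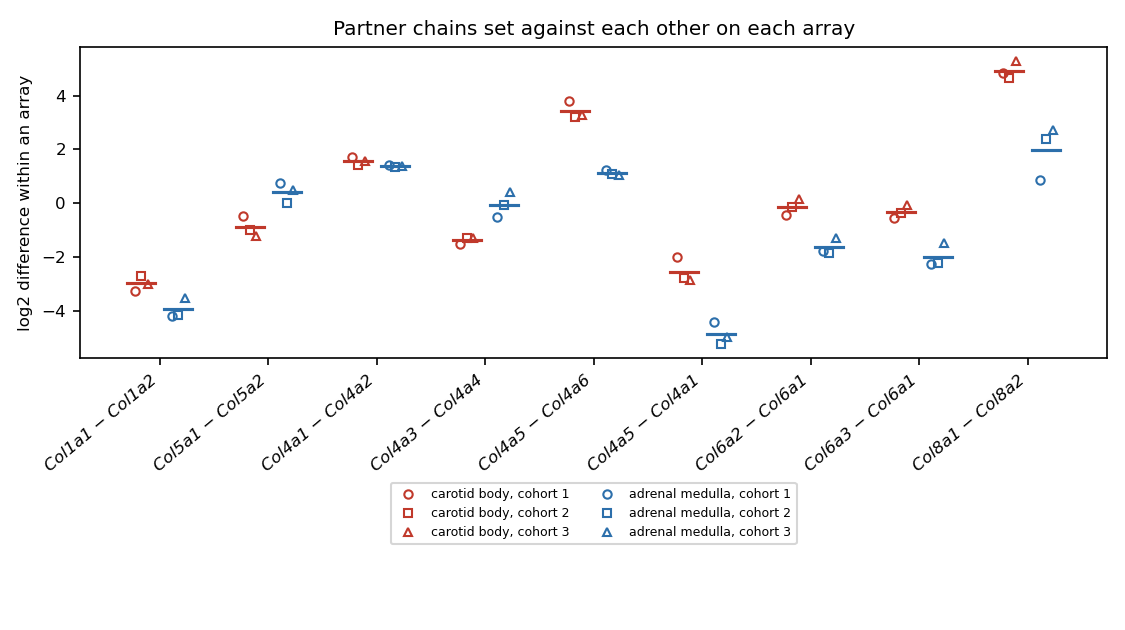
Log2 difference between 2 partner chains on each array, for 9 pairs, with a shape for each cohort and bars for the means of 3 arrays. The pair Col4a1 and Col4a2 is nearly level between tissues (shift 0.19), while Col8a1 against Col8a2 shifts by 2.92; with the mean of all probe sets these shifts are -0.03 and 1.4997.

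The basement membrane partners of type IV collagen were measured through 14 laminin, nidogen, perlecan and agrin genes. Of these, 6 were higher in carotid body (5.91% of all genes) and 0 lower (6.08%), and the median difference was 0.72. Lama4, the laminin chain of vessel basement membranes, was at 8.55, 8.46 and 8.82 in carotid body, against 6.51, 6.67 and 6.35 in adrenal medulla. It differed by 2.10 ± 0.14 (SE; adjusted p = 0.000112). Lamb2 differed by 1.77 and Lamc1 by 1.29, and the linker gene Nid2 by 1.63. Of 8 endothelial markers 2 were higher (5.91% of all genes) and 0 lower (6.08%). The higher ones were Cldn5 at 3.97 and Cdh5 at 1.28. The median difference of the 8 was 0.52, and Emcn went the other way, at -0.51 (not called). The mean level of the 8, in which Cldn5 weighs most, was 9.16 to 9.56 in carotid body, against 8.37 to 8.56 in adrenal medulla. Of 6 Schwann and satellite glia markers 5 were higher (5.91% of all genes) and 0 lower (6.08%). The mean level of the 6 was 9.87 to 10.1 in carotid body, against 7.74 to 8.02 in adrenal medulla. The part of these cells in the basement membrane differences was not tested.

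Among the network collagens 1 of 3 was higher in carotid body (5.91% of all genes) and 0 were lower (6.08%). Col8a1, a chain of the type VIII lattice found under endothelium and in vessel walls, was at 10.85, 11.06 and 11.22 in carotid body, against 6.80, 6.90 and 7.19 in adrenal medulla. The tissues were more than 3 log2 units apart on every array. The difference, 4.08 ± 0.15 (SE; adjusted p = 1.25e-05), was the largest among the brightest probe sets of the 42 collagens. A further probe set gave 3.34, and the dimmest of the 3 gave 0.54 (adjusted p = 0.131). As the mean of its probe sets Col8a1 differed by 2.65, below Col3a1 at 3.22, Col1a1 at 3.19 and Col5a2 at 2.75.

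Col8a2, the other type VIII chain, was at 6.02, 6.41 and 5.93 in carotid body, against 5.94, 4.51 and 4.45 in adrenal medulla. Adrenal medulla cohort 1 lay inside the carotid body range, and the other adrenal medulla arrays lay well below it. The difference of 1.15 was not called (adjusted p = 0.0668), and without that array it was 1.64 (adjusted p = 0.00203). Col10a1, the collagen of hypertrophic cartilage, was dim on all arrays, at 4.30 ± 0.24 in carotid body, against 4.22 ± 0.16 in adrenal medulla (SD, n = 3), and was not called (adjusted p = 0.766).

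Of the 9 FACIT genes, 3 were higher in carotid body (5.91% of all genes) and 0 lower (6.08%). The median difference was 0.50. Col12a1, whose long chains bridge type I fibrils in tendon and fascia, was at 10.11, 9.83 and 10.08 in carotid body, against 6.17, 5.91 and 6.06 in adrenal medulla. The arrays of a tissue lay within 0.3 of each other and the tissues lay far apart. The difference was 3.96 ± 0.13 (SE; adjusted p = 7.7e-06), 15.5-fold, through 1 of 4 probe sets. The others gave 0.78 (adjusted p = 0.0109), 0.15 and 0.11, and the mean of all 4 differed by 1.25.

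Col14a1, which is close in build to Col12a1, was at 10.02, 10.29 and 10.35 in carotid body, against 7.38, 8.21 and 7.97 in adrenal medulla. It differed by 2.37 ± 0.22 (SE; adjusted p = 0.000372), and 2 of its 3 probe sets were called, the mean of the 3 differing by 1.58. Col16a1 was at 8.40, 8.86 and 8.83 in carotid body, against 7.54, 7.26 and 7.48 in adrenal medulla, a difference of 1.27 (adjusted p = 0.00149). In both genes the groups did not overlap. The other 6 FACIT genes were not called, with differences of 0.02 to 0.56. Col9a1, Col9a2 and Col9a3, the chains of the cartilage collagen IX, were at 0.02, 0.56 and 0.27, and Col19a1, Col20a1 and Col22a1 at 0.04, 0.50 and 0.16.

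Type VI collagen forms beaded filaments near cells from a chain of each of 3 genes. Col6a3 was at 9.88, 10.34 and 10.26 in carotid body, against 7.77, 8.55 and 8.53 in adrenal medulla, a difference of 1.87 ± 0.24 (SE; adjusted p = 0.00145). Col6a2 was at 10.01, 10.58 and 10.48 in carotid body, against 8.25, 8.91 and 8.73 in adrenal medulla, a difference of 1.73 ± 0.22 (SE; adjusted p = 0.00147). In these chains the groups did not overlap.

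Col6a1, the neighbour of Col6a2 on chromosome 10, was at 10.45, 10.72 and 10.32 in carotid body, against 10.05, 10.77 and 10.01 in adrenal medulla. Here the groups overlapped, with adrenal medulla cohort 2 above every carotid body array. The difference was 0.22 (95% interval -0.30 to 0.74; adjusted p = 0.549). Within arrays, Col6a2 minus Col6a1 shifted by 1.51 and Col6a3 minus Col6a1 by 1.66. Col6a1 had 1 probe set, so its value could not be set against another. The later-found chains Col6a4 and Col6a5 were dim and differed by 0.29 and -0.03, neither of them called.

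Of the 13 collagens of the remaining types, type VI included, 4 were higher in carotid body (5.91% of all genes) and 1 was lower (6.08%). Besides Col6a2 and Col6a3, the higher ones were Col18a1 and Col23a1. The lower one, Col7a1, is described below. Col18a1, the source of the antiangiogenic fragment endostatin, was at 9.14, 9.98 and 9.80 in carotid body, against 7.92, 8.09 and 7.91 in adrenal medulla, a difference of 1.67 ± 0.22 (SE; adjusted p = 0.00164). Its relative Col15a1 differed by 0.82 (adjusted p = 0.0201), under 2-fold, with groups that did not overlap. Col23a1, a transmembrane collagen, was at 6.51, 6.93 and 7.39 in carotid body, against 4.95, 5.27 and 5.20 in adrenal medulla, a difference of 1.81 (adjusted p = 0.00129) that its 3 probe sets shared, at 1.81 to 1.91. Col18a1 and Col23a1 thus stood clear of the adrenal medulla arrays on every array. The transmembrane collagens Col13a1, Col17a1 and Col25a1 differed by -0.18, 0.15 and -0.06, and Col26a1 by 0.17, none of them called. Col17a1 and Col26a1 were dim, with means of 3.64 and 4.22 in carotid body, against 3.49 and 4.05 in adrenal medulla.

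Col7a1, whose protein forms the anchoring fibrils under skin epithelium, was the exception in direction. It was at 5.85, 4.62 and 5.41 in carotid body, against 7.13, 7.51 and 7.21 in adrenal medulla. All carotid body arrays lay over 1 log2 unit below all adrenal medulla arrays. It fell by 1.99 ± 0.29 (log2, SE; adjusted p = 0.00291), 3.97-fold lower in carotid body. Its highest carotid body array was cohort 1, the pool with high cortex markers, and without that array the difference was -2.27 (adjusted p = 0.00141). Of 8 cortex markers 7 were lower in carotid body (6.08% of all genes), and their part in the Col7a1 difference was not tested.

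Of 19 genes of procollagen modification and folding, 2 were higher in carotid body and 1 lower, counts close to the 5.91% and 6.08% of all genes, and the median difference was -0.02. Serpinh1, the collagen chaperone HSP47, was at 11.03, 11.60 and 11.29 in carotid body, against 9.86, 9.90 and 9.86 in adrenal medulla. It differed by 1.43 ± 0.16 (SE; adjusted p = 0.000781), and Ppib, a prolyl isomerase that aids helix folding, by 1.14.

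Plod2, the lysyl hydroxylase of the chain ends that steers crosslinks, was lower in carotid body. It was at 8.13, 6.89 and 6.55 in carotid body, against 9.72, 9.26 and 9.32 in adrenal medulla. The difference was -2.24 ± 0.38 (SE; adjusted p = 0.00508). Carotid body cohort 1, where cortex markers were high, was the highest of its tissue, and the part of cortex in the Plod2 levels was not tested. The prolyl hydroxylase genes P4ha1, P4ha2 and P4ha3 differed by 0.27, -0.72 and 0.48, and their shared subunit P4hb by -0.31, none of them called. At an adjusted p under 0.05 with no minimum fold, 4 of the 19 genes were higher (10.9% of all genes) and 4 lower (16.5%). The additions were Tram2 at 0.79 and P3h2 at 0.76 on the higher side. On the lower side they were P3h1 at -0.98, Fkbp14 at -0.95 and Mia3 at -0.68.

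Of 12 genes of procollagen cleavage and crosslinking, 3 were higher (5.91% of all genes) and 0 lower (6.08%) in carotid body, and the median difference was 0.49. Pcolce2, which speeds removal of the C-terminal propeptide, was at 11.17, 11.32 and 10.80 in carotid body, against 4.50, 3.75 and 3.72 in adrenal medulla (adjusted p = 7.7e-06). In adrenal medulla cohorts 2 and 3 the values lay near the lower quartiles of those arrays, 3.89 and 3.94. The cohort 1 value, 4.50, lay above its lower quartile of 3.96. None of the adrenal medulla values was shown to be above background, so the measured difference of 7.11 may understate the gap. Its relative Pcolce was at 12.52, 12.26 and 12.27 in carotid body, against 13.44, 13.32 and 13.12 in adrenal medulla. The groups did not overlap, and the difference of -0.94 (adjusted p = 0.00258) was just under 2-fold. The protease Bmp1, which both enhance, differed by 0.09. The crosslinking oxidases Lox and Loxl3 differed by 1.78 (adjusted p = 0.000266) and 1.22 (adjusted p = 0.00521).

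Of 9 collagen receptors 1 was higher in carotid body and 0 lower, where 5.91% and 6.08% of all genes were, so the count does not set them apart. The median difference was 0.08. It was Ddr2, a receptor kinase for fibrillar collagen, at 8.64, 8.99 and 9.04 in carotid body, against 6.73, 6.51 and 6.50 in adrenal medulla, a difference of 2.31 ± 0.15 (SE; adjusted p = 7.72e-05). Its relative Ddr1 differed by -0.25 (adjusted p = 0.362), and the integrin genes Itga1, Itga2, Itga10 and Itgb1 by -0.39, 0.08, 0.34 and 0.05, none of them called. Among 12 genes of collagen breakdown and its inhibitors, 5 were higher (5.91% of all genes) and 1 lower (6.08%), and the median difference was 0.81. The fibroblast protease Fap differed by 3.78, the gelatinase Mmp2 by 2.86 and the lysosomal protease Ctsk by 1.25. The collagenase Mmp13 was at 3.86, 4.01 and 3.77 in carotid body, against 7.41, 5.96 and 6.70 in adrenal medulla, a measured difference of -2.81 (adjusted p = 0.000991). The carotid body values lay near the lower quartile of those arrays, 3.96 to 4.03, and were not shown to be above background, so this size too may understate the gap.

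**Figure D5:**
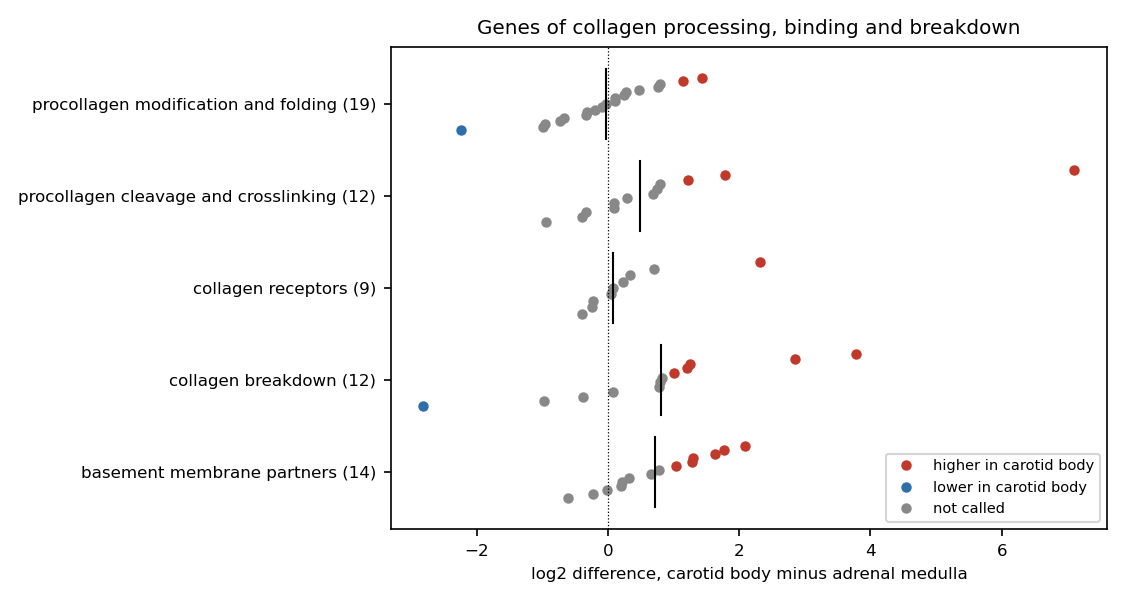
Log2 differences, carotid body minus adrenal medulla, of the genes in 5 collagen pathway lists; each point is a gene, the number of genes is in parentheses and the black bar is the median of the list. Pcolce2 lies farthest to the right at 7.11, and Mmp13, at -2.81, and Plod2, at -2.24, are the 2 genes called lower in carotid body.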

How the data were processed

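Affymetrix 3′ expression arrays were hybridised with RNA of 3 carotid body and 3 adrenal medulla pools. The deposited values are log2 intensities, 1 per probe set and array, read as log2 from their range of 2.70 to 14.97. Per the submitters' processing notes, the authors used Affymetrix Expression Console. Which version and which summarisation and normalization they chose is not given in the sources used here. Without detection calls, low intensity and no expression look alike, and the number of arrays limits the precision.

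Of 45101 probe sets, 64 controls were left out. The remaining 45037 entered lmFit and eBayes (limma 3.58.1, R 4.3.3; 2 tissues, no block), with two-sided p-values adjusted by Benjamini-Hochberg over all of them. Calls needed an adjusted p under 0.05 and at least 2-fold. The platform annotation gave 34945 probe sets 1 symbol, 932 several and 9160 none. Through gene IDs found for 34741 in a RefSeq table of GRCm38.p6, 0 symbols changed. Each gene was represented by its brightest probe set, and 27 of the 42 collagens had several, 82 in all. Exact permutation tests used SciPy 1.17.1. The fit was tested on simulated data.

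The members, lists and classes were chosen with earlier results of these data known. Of each pathway list the text names up to 4 called genes with the largest differences, and others, chosen after their values were seen, to place them. The pairing rests on the series' statement that equal numbers mark a shared cohort. Deviations of same-numbered arrays from their tissue means correlated at 0.22, 0.08 and 0.16, and those of other pairs at -0.21 to 0.10. The cohort as a replicate block, other normalizations, filters, variance models, probe set rules and leaving out arrays or cohorts were tried. A choice of pseudocount planned for linear values was not needed.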

Additional observations from a re-analysis of the deposited data

How the results depend on the processing

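The cohort as a replicate block, quantile normalization and median-centred arrays gave the same 14 collagens higher and 1 lower in carotid body; centring moved the median of all probe sets by -0.11. The 14 were also called, with Col8a2 added (15 higher), when dim probe sets were left out, with an intensity trend and robust variances, and with array weights, so that network collagens higher numbered 2 under each of these 3 settings. With the mean of all probe sets 13 were higher, Col5a1 being lost at 0.75, and Col8a1, Col12a1, Col14a1 and Col4a5 differed by 2.65, 1.25, 1.58 and 1.56. The same setting for the shifts of partner chains was chosen after seeing the data. With no minimum fold, 17 were higher and 2 lower; basement membrane collagens then numbered 2 higher and 1 lower. Leaving out each array or cohort gave 13 to 15 collagens higher and 1 lower, and 1 to 2 network collagens higher: Col8a2 was gained without adrenal medulla array 1 or cohort 1 (differences 1.64 and 1.69), and Col5a1 was lost without cohort 2. Over all genes, without cohort 2, 807 were higher and 532 lower, against 1075 and 1107 with all arrays, and without minimum fold 1988 and 2995. Of 660 gene values under the alternatives that kept the 2-fold minimum, 653 stayed on their side of the thresholds. Of the others, 5 were newly called (Col8a2) and 2 were no longer called (Col5a1). Among the called genes 0 changed direction. Of the 42 collagens, 12 had a mean level under the median of all probe sets, where differences are compressed. The planned setting for linear values was not run, since the values are on a log scale.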
